A study of Mus musculus with 12 samples.

Results

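The integrin beta subunits are encoded in the mouse by the 8 genes Itgb1 to Itgb8, which were found by their symbols among the 54347 genes of the deposited count table. All 8 passed the filter on low counts, which 15319 genes passed. They were followed through 12 RNA libraries of PYMT cells, a line named after a mouse model of mammary cancer in which polyoma middle T antigen is the oncogene. The cells were grown in matrigel, a basement membrane gel that all groups shared. The TGFB2 group received transforming growth factor beta 2 at 5 ng/mL for 3 days, the BMP4 group bone morphogenetic protein 4 at 5 ng/mL, the BMP4-TGFB2 group both ligands at those doses, and the NT group neither. The medium was then changed and the cells were harvested 2 days later, so the libraries report the state after the ligands had been removed from the medium. Each group had 3 libraries, called biological replicates, and p-values reflect only how these cultures spread. The question behind the study was how programs that induce dormancy, a lasting growth arrest of tumour cells, differ between the ligands.

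Integrins are surface receptors made of an alpha and a beta chain, and they tie the actin or keratin cytoskeleton to the extracellular matrix. The beta chain sets much of the pairing. The Itgb1 product joins many alpha chains and binds collagens, laminins and fibronectin. The Itgb4 product joins only the Itga6 chain and anchors epithelial cells to laminin in hemidesmosomes. The Itgb3, Itgb5, Itgb6 and Itgb8 products share the alpha v chain, encoded by Itgav, and bind an arginine-glycine-aspartate motif in fibronectin, vitronectin and other ligands. The Itgb6 and Itgb8 integrins are known for binding this motif in the latent forms of TGFb1 and TGFb3 and releasing the active growth factor. The Itgb2 and Itgb7 chains are known mainly from leukocytes.

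Itgb1, Itgb4 and Itgb5 transcripts made up nearly all of the family's message in these cells, while Itgb3, scarcely detected without a ligand, showed the largest response. With TGFB2, Itgb3 rose 67.4-fold, Itgb5 3.84-fold, Itgb1 1.85-fold, Itgb6 1.64-fold and Itgb4 1.45-fold, and Itgb8 fell to 0.332 of its NT level. With BMP4, Itgb3 rose 6.47-fold, Itgb6 2.67-fold and Itgb5 1.95-fold. The BMP4 calls on Itgb3 and Itgb5 were each lost without any single NT library and in other settings. Leaving out single libraries did not end the BMP4 call on Itgb6. Of the subunits tied to TGFb activation, Itgb6 passed as higher with each ligand by counts, but with neither in abundances scaled for length. With TGFB2 its margin was close to the threshold, and Itgb8 was lower with TGFB2.

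Genome positions are those of GRCm38 (GENCODE M21), in which each of the 8 identifiers was found with the same version. Itgb1 (ENSMUSG00000025809.15) lies on the plus strand of chromosome 8 at 128685654 to 128733200, and Itgb5 (ENSMUSG00000022817.15) on the plus strand of chromosome 16 at 33829665 to 33949338. Itgb3 (ENSMUSG00000020689.4) and Itgb4 (ENSMUSG00000020758.15) lie on the plus strand of chromosome 11, at 104608000 to 104670476 and at 115974709 to 116008412. Itgb6 (ENSMUSG00000026971.15) lies on the minus strand of chromosome 2 at 60598292 to 60722643. Itgb8 (ENSMUSG00000025321.14) lies on the minus strand of chromosome 12 at 119158022 to 119238802. Itgb2 (ENSMUSG00000000290.13) is on the plus strand of chromosome 10 at 77530252 to 77565708, and Itgb7 (ENSMUSG00000001281.10) on the minus strand of chromosome 15 at 102215995 to 102231944. The libraries did not keep strand, and Itgb4 was the only one of the 8 whose exons overlap those of another annotated gene, B230344G16Rik, which had 0 counts.

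RefSeq promoter windows on GRCm38.p6 were matched for 5 of the 8 genes: Itgb1, Itgb5, Itgb6, Itgb7 and Itgb8. The windows of Itgb5, Itgb1 and Itgb6 are printed because these genes rose with TGFB2, each cut at the first annotated exon so that it holds upstream bases only, 5′ to 3′ on the gene's strand. Capitals mark CAGAC on either strand (GTCTG on the printed strand when it lies on the other), the letters of the SMAD-binding element known from TGFb target genes.
Itgb5 (chr16:33829415-33829664, plus strand, 250 bases, ending at the RefSeq start): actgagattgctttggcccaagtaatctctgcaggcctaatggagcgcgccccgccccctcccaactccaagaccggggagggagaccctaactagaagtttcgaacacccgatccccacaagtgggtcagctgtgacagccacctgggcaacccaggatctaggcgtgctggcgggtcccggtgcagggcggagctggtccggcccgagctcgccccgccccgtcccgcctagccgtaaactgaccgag
Itgb1 (chr8:128685404-128685653, plus strand, 250 bases, ending at the RefSeq start): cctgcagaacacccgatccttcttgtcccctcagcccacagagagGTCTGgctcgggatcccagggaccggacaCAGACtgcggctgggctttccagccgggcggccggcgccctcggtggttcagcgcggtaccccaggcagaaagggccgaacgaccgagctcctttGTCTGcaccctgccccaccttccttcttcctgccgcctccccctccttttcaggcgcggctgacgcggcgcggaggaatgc
Itgb6 (chr2:60722644-60722853, minus strand, 210 bases, ending 40 bases before the RefSeq start): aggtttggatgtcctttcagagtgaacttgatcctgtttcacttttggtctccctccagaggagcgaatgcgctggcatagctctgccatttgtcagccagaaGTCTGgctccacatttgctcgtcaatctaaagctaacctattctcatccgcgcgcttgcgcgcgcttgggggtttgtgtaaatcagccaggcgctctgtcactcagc
The Itgb5 window held 0 CAGAC matches and the Itgb1 window held 3. CAGAC occurs in 42.2% of all 32851 RefSeq promoter windows trimmed to the same length. The Itgb6 window held 1 match, on the strand opposite to the gene, and 37.2% of windows trimmed to its length hold the letters. GGCGCC, a GC-rich sequence known from BMP target genes that reads alike on both strands, was found 1 time in the Itgb1 window and 0 times in the other printed windows (9.59% of all windows at 250 bases and 7.66% at 210). The other windows searched were that of an internal Itgb6 start (chr2:60673755-60673943, 189 bases), with 0 CAGAC matches (34.5% of windows at its length hold one), and that of Itgb7, a gene that was not called in any comparison, with 2 in 241 bases (41.0%). The Itgb8 window begins, at its most upstream base, in an annotated exon of the gene and was not searched. These are matches of letters in short windows and were not measured as binding sites.

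Library totals lay between 28543100 and 42167700 counts. Members are compared with each other in TPM, the deposited transcript abundances scaled for length and depth. Each gene is compared between groups in CPM, counts scaled to the library total after adjustment by its normalization (TMM) factor. Of 9 genes known to respond to these ligands, 5 rose and 1 fell with TGFB2, and 7 rose and 0 fell with BMP4. The 8 epithelial markers summed to 4402 to 5055 CPM in NT libraries and 4548 to 5117 CPM in TGFB2 libraries, with Krt8 the most abundant. Of these 8, Krt19 (-0.71 ± 0.22; edgeR adjusted p = 0.043) and Esrp1 (-0.38 ± 0.10; 0.0191) were called lower with TGFB2, each lost without NT replicate 2 or 3 or TGFB2 replicate 3 and in other settings (0.0514 to 0.166). With both ligands these 2 and Cdh1 (-0.50 ± 0.10; 0.00342) were called lower, Krt19 and Esrp1 again not in all settings (0.0533 to 0.171 over their lost calls), and 0 of the 8 were called lower with BMP4. Their part in the results on the integrin genes was not tested. Transcripts with mitochondrial symbols (mt-) took 1.14% to 1.95% of counts in NT, 1.84% to 2.95% in TGFB2, 1.40% to 1.76% in BMP4 and 1.77% to 2.91% in BMP4-TGFB2 libraries, and the part of this in the results was not tested.

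In untreated cells Itgb4 and Itgb1 were the most abundant members per length, at 328 ± 31.3 TPM and 269 ± 26.5 TPM (SD, n = 3). They were followed by Itgb5 at 96.5 ± 10.2 TPM, and the 3 NT libraries of each of these genes did not overlap with those of the next in order. Itgb6 at 7.43 ± 3.09 TPM and Itgb8 at 6.20 ± 2.59 TPM did not differ beyond their spread. Itgb7 (0.440 ± 0.664 TPM), Itgb2 (0.345 ± 0.355 TPM) and Itgb3 (0.153 ± 0.0888 TPM) were at the bottom, also within each other's spread. The summed level of the 8 genes was 628 to 765 TPM in NT libraries, 1148 to 1644 TPM with TGFB2, 768 to 1076 TPM with BMP4 and 1255 to 1706 TPM with both. Every library given TGFB2 was above every library without it in that sum. Itgb4 took 46.3% of the sum in NT and 34.9% with TGFB2, while Itgb5 went from 13.6% to 27.3%. Itgb3 stayed a small part of the family throughout, at 0.0221% of the sum in NT and 0.747% with TGFB2. In this order Itgb3 moved from the lowest mean of the 8 to the same range as Itgb6: with TGFB2 it averaged 10.4 ± 4.43 TPM and Itgb6 9.85 ± 1.47 TPM.

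**Figure D1:**
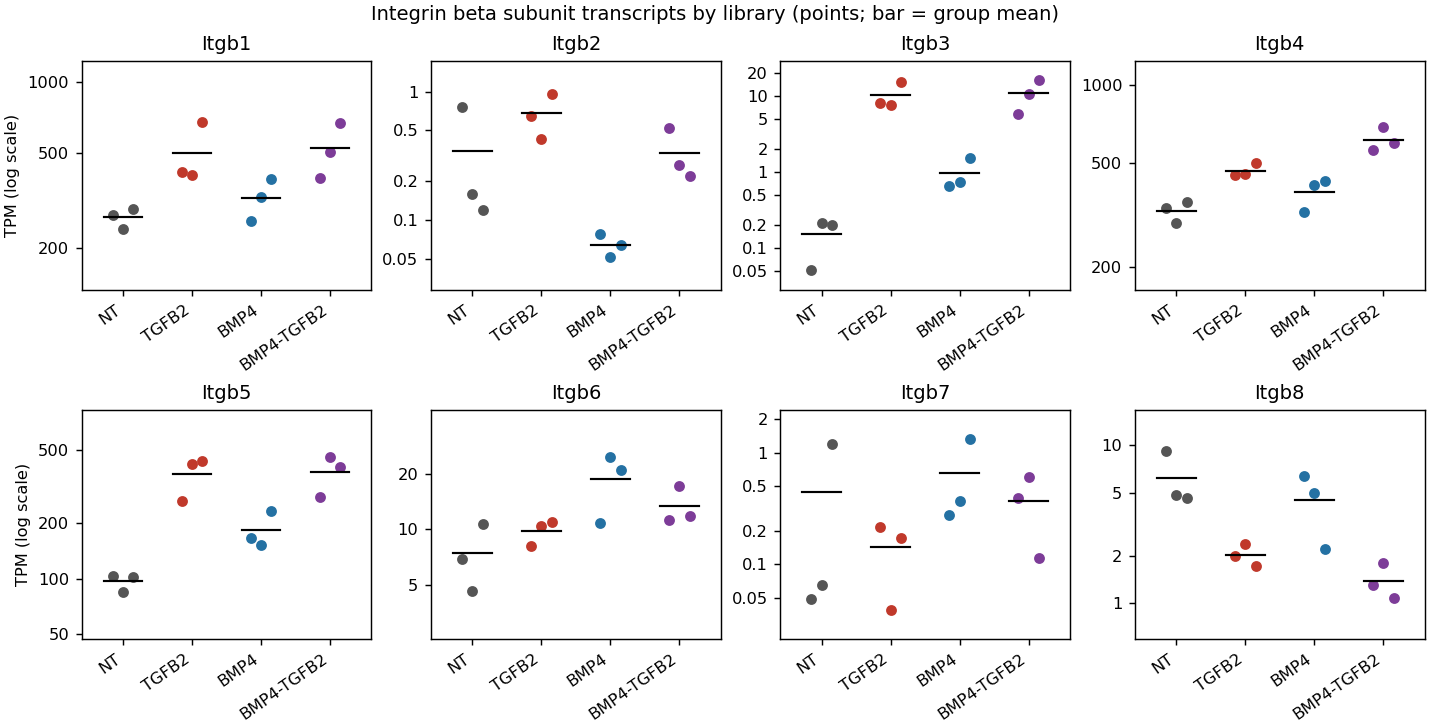
Transcript level of each integrin beta subunit gene in TPM (log axes, which differ between panels) in the 12 libraries. Points are libraries, drawn in order of replicate number, and bars are group means. The 3 Itgb3 points with TGFB2 (7.69 to 15.6 TPM) lie above all those of NT (0.0506 to 0.209 TPM), while the Itgb8 points with TGFB2 (1.72 to 2.36 TPM) lie below those of NT (4.59 to 9.18 TPM).

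The TGFB2 and NT groups differed in 6 of the 8 genes, 5 higher and 1 lower. Among all genes tested, 11.3% rose and 11.1% fell in this comparison. For 38.5% of all genes tested the TGFB2 and NT libraries did not overlap, so such a gap is common here. The median log2 fold change of the 8 was 0.80, beside 0.01 over all genes tested. Itgb3 and Itgb5 had the largest rises, both alpha v partners, and Itgb8, another alpha v partner, was the member that fell.

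Itgb3, the beta chain of the vitronectin receptor and of the platelet fibrinogen receptor, had 7, 29 and 25 counts in the NT libraries, or 0.183, 0.822 and 0.750 CPM. With TGFB2 alone it had 1347, 900 and 2053 counts, or 31.9, 28.9 and 56.9 CPM. Every TGFB2 library was thus more than an order of magnitude above every NT library. The log2 fold change was 6.07 ± 0.63 (SE; 95% interval 4.84 to 7.31; edgeR adjusted p = 0.00010), higher in 3 of 3 libraries. Its NT level was near the bottom of what these libraries could count, and leaving out any single library did not end the call.

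Itgb5, which forms the other widely expressed vitronectin receptor, had 175, 147 and 175 CPM in NT libraries and 475, 716 and 719 CPM with TGFB2. The groups did not overlap, and TGFB2 replicate 1 was the lowest of its group. The log2 fold change was 1.94 ± 0.23 (edgeR adjusted p = 0.000163). Itgb5 started from a far higher level and stayed the most abundant of Itgb3, Itgb5, Itgb6 and Itgb8. Of their summed TPM it held 87.7% in NT and 94.3% with TGFB2. Itgb1, which joins many alpha chains, is not part of that sum. Itgb3 went from 0.145% to 2.65% of that sum, Itgb6 from 6.62% to 2.54% and Itgb8 from 5.57% to 0.535%.

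Itgb8, the chain of an integrin that presents latent TGFb to neighbouring receptors, had 48.1, 27.1 and 24.8 CPM in NT libraries and 11.4, 12.9 and 8.93 CPM with TGFB2. All TGFB2 libraries were below all NT libraries, and NT replicate 1 stood highest. The log2 fold change was -1.59 ± 0.37 (edgeR adjusted p = 0.0105), and with every replicate 1 library left out it no longer passed (adjusted p = 0.0514).

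Itgb6, the epithelial chain of the other main TGFb-activating integrin, had 15.3, 11.9 and 18.2 CPM in NT libraries and 21.8, 26.3 and 26.3 CPM with TGFB2. In CPM the groups did not overlap, but the gap between them was small. In TPM they overlapped, at 6.94, 4.62 and 10.7 in NT libraries and 8.17, 10.5 and 10.9 with TGFB2. The log2 fold change was 0.71 ± 0.24 (edgeR adjusted p = 0.0499). It no longer passed without any single NT library, any single TGFB2 library, BMP4 replicate 2 or BMP4-TGFB2 replicate 1 or 3, nor with 4 other settings, among them limma voom and the fit on TPM (adjusted p 0.0501 to 0.388 over these). Its direction was the same throughout, so the rise of Itgb6 with TGFB2 alone is a call at the edge of the threshold.

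The abundant members rose by less. Itgb1 had 644, 610 and 711 CPM in NT libraries and 1059, 980 and 1601 CPM with TGFB2, a log2 fold change of 0.89 ± 0.24 (edgeR adjusted p = 0.0197). TGFB2 replicate 3 was well above the other 2. The call was lost without that library or without NT replicate 2 (adjusted p 0.0768 to 0.0792). Itgb4, the hemidesmosome chain, had 1150, 1126 and 1293 CPM in NT libraries and 1717, 1660 and 1786 CPM with TGFB2. Its libraries were tight and did not overlap between groups, and the log2 fold change was 0.53 ± 0.13 (edgeR adjusted p = 0.0121). Without NT replicate 2 the adjusted p was 0.0564. Without NT replicate 2, 3 of the 8 members passed instead of 6, since Itgb1, Itgb4 and Itgb6 were lost.

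Itgb2 and Itgb7 were near the limit of detection and did not pass. Itgb2, the chain of the leukocyte adhesion receptors, had 32, 11 and 6 counts in NT libraries and 54, 25 and 63 with TGFB2 (log2 fold change 1.51 ± 0.63; edgeR adjusted p = 0.11). NT replicate 1 overlapped with the TGFB2 range, and without it Itgb2 passed (2.36 on the log2 scale; adjusted p = 0.0265). Itgb7, whose product guides lymphocytes to the gut, had 3, 4 and 13 counts in NT libraries and 16, 2 and 10 with TGFB2, and these ranges overlapped (0.34 ± 0.78; adjusted p = 0.799).

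BMP4 alone raised 3 of the 8 genes, Itgb3, Itgb5 and Itgb6, and lowered 0 of them; 3.19% of all genes tested rose and 2.23% fell. The median log2 fold change of the 8 was 0.64, beside 0.00 over all genes. For 23.8% of all genes tested the BMP4 and NT libraries did not overlap. These comparisons share the NT libraries with those of TGFB2, so the values are set side by side and not treated as separate evidence. Itgb3 had 100, 86 and 192 counts, or 2.57, 2.72 and 6.02 CPM, with BMP4. All were above the NT range and far below the TGFB2 range, with BMP4 replicate 3 the highest. The log2 fold change was 2.69 ± 0.58 (edgeR adjusted p = 0.0234), against the 6.07 of TGFB2. The BMP4 call on Itgb3 was lost without NT replicate 1, 2 or 3, BMP4 replicate 3 or every replicate 1 library, and in 3 other settings (adjusted p 0.0526 to 0.190).

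Itgb6 had 28.2, 42.3 and 50.8 CPM with BMP4, each above the highest NT library (18.2 CPM). Its log2 fold change was 1.42 ± 0.24 (edgeR adjusted p = 0.00651), and leaving out single libraries did not end this call. Per length the picture was less clear. Itgb6 had 6.94, 4.62 and 10.7 TPM in NT libraries and 10.9, 24.5 and 21 TPM with BMP4, and on the log2(TPM + 0.1) scale limma gave an adjusted p of 0.0613. The ratio of counts to TPM, which follows the mean transcript length assigned to a gene, varied 1.49-fold between libraries for Itgb6, more than for 90.9% of genes with a mean count above 500. For Itgb3 that ratio varied 1.03-fold. Itgb5 had 303, 259 and 408 CPM with BMP4, all above the NT libraries, and a log2 fold change of 0.96 ± 0.22 (edgeR adjusted p = 0.0281). This call was lost without any single NT library or BMP4 replicate 1 or 3, and on the TPM scale (adjusted p 0.0541 to 0.128). With any 1 of the NT libraries or BMP4 replicate 3 left out, only Itgb6 of the 8 passed.

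The other 5 did not pass with BMP4. Itgb8 had 36.1, 26.3 and 12.7 CPM, a range that overlapped with NT, and a log2 fold change of -0.41 ± 0.36 (95% interval -1.12 to 0.30; edgeR adjusted p = 0.619). BMP4 replicate 3 was close to the TGFB2 libraries and the other 2 were among the NT libraries. Itgb1 was at 0.31 ± 0.24 and Itgb4 at 0.30 ± 0.13 (adjusted p 0.544 and 0.233), with overlapping libraries. Itgb2 had 6, 3 and 4 counts (-1.79 ± 0.69; adjusted p = 0.178) and Itgb7 had 19, 19 and 16 counts (1.45 ± 0.77; adjusted p = 0.355), too few for a firm statement.

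With both ligands the calls against NT were those seen with TGFB2 alone. Against NT, 5 rose and 1 fell, the same genes in the same directions as with TGFB2 alone; of all genes tested 13.3% rose and 12.9% fell. Itgb3 had 23.2, 38.9 and 62.9 CPM, Itgb5 501, 760 and 715 CPM and Itgb8 7.56, 9.56 and 5.76 CPM. Their log2 fold changes against NT were 6.16 ± 0.63, 1.99 ± 0.23 and -2.13 ± 0.38 (edgeR adjusted p = 6.69e-05, 9.86e-05 and 0.00189). For each of them replicate 1, 2 and 3 lay outside the NT range. The BMP4-TGFB2 and NT libraries did not overlap for 41.3% of all genes tested. Itgb6 had 29.3, 40.9 and 27.7 CPM (1.11 ± 0.24; adjusted p = 0.0054, and 0.0874 on the TPM scale), Itgb1 rose by 0.99 ± 0.24 and Itgb4 by 0.94 ± 0.13 (adjusted p = 0.0104 and 0.000343). Itgb2 (0.46 ± 0.63) and Itgb7 (1.06 ± 0.78) did not pass.

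**Figure D2:**
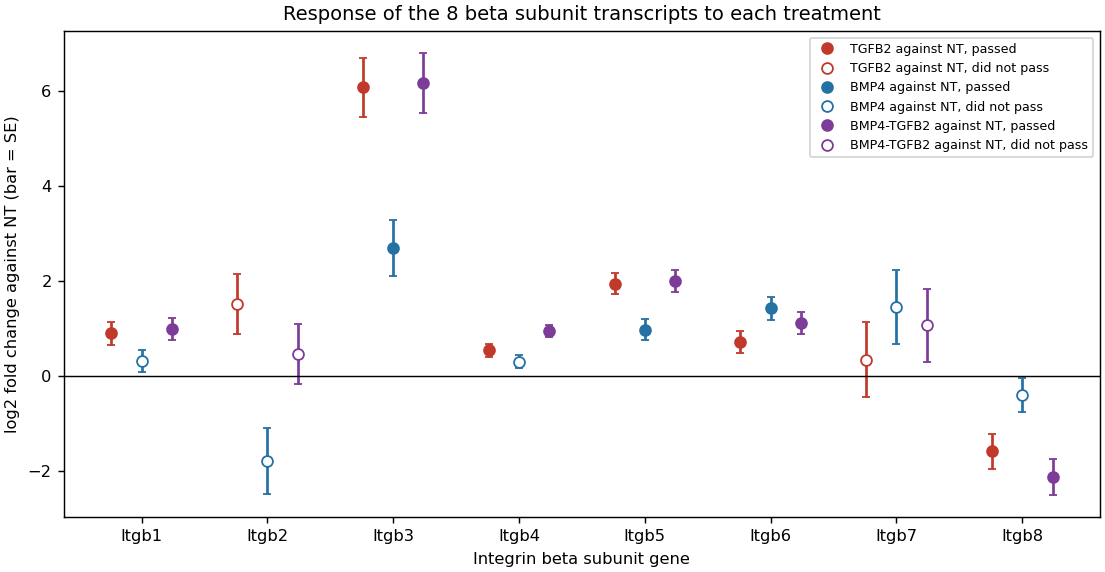
Log2 fold change of the 8 integrin beta subunit genes against NT for each treatment, with SE bars. Filled points passed at an adjusted p under 0.05 and open points did not. Itgb3 stands apart at 6.07 with TGFB2 and 6.16 with both ligands, against 2.69 with BMP4, and Itgb8 lies below 0.

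Adding BMP4 to TGFB2 changed 0 of the 8 members (edgeR), and 0% of all genes tested passed in this comparison. DESeq2, limma voom and limma on TPM also gave 0 members, and 1 member had an unadjusted p under 0.05. That member was Itgb4, with 2189, 2412 and 2246 CPM in BMP4-TGFB2 libraries, above the 1660 to 1786 CPM with TGFB2 (0.41 ± 0.13; unadjusted p = 0.00832, and adjusted p = 1). Itgb3 differed by 0.09 ± 0.48, with a 95% interval from -0.85 to 1.03, so changes of that size in either direction lie within its error. For Itgb6 the difference was 0.40 ± 0.23 (95% interval -0.06 to 0.86), for Itgb8 -0.54 ± 0.37 (-1.26 to 0.19) and for Itgb5 0.05 ± 0.22 (-0.38 to 0.48). Itgb4 and Itgb6 were the members whose libraries did not overlap between these groups, as was so for 6.77% of all genes tested.

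Adding TGFB2 to BMP4 raised Itgb3 by 3.47 ± 0.54, Itgb5 by 1.03 ± 0.22 and Itgb4 by 0.64 ± 0.13 on the log2 scale and lowered Itgb8, at -1.72 ± 0.37 (edgeR adjusted p = 0.003, 0.0142, 0.00991 and 0.0158). These are 3 of 8 risen and 1 of 8 fallen, where 4.18% of all genes rose and 4.92% fell. Itgb6 did not pass (-0.31 ± 0.23; adjusted p = 0.474). Itgb1 (0.67 ± 0.24; adjusted p = 0.105) and Itgb2 (2.26 ± 0.69; adjusted p = 0.0657) did not pass either, but did with the replicate number as a block (adjusted p = 0.0036 and 0.0264). The Itgb4 call was lost in the fit on only the groups compared (adjusted p = 0.0570). Itgb5 and Itgb8 were both lost without BMP4 replicate 1 or BMP4 replicate 2, which left 2 members. Itgb5 was also lost without BMP4-TGFB2 replicate 2 (adjusted p 0.0506 to 0.0699 over its lost calls), and Itgb8 without BMP4-TGFB2 replicate 1 or 3 or all replicate 1 libraries (0.0543 to 0.0810).

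Set directly against TGFB2, BMP4 gave lower levels of Itgb3 (-3.38 ± 0.53), Itgb2 (-3.31 ± 0.70) and Itgb5 (-0.98 ± 0.22), at edgeR adjusted p of 0.0037, 0.0142 and 0.0197. Of the members 0 were called higher and 3 lower, and of all genes 4.11% were higher and 3.65% lower. The Itgb2 difference rests on 6, 3 and 4 counts against 54, 25 and 63, and was lost without TGFB2 replicate 3 or BMP4 replicate 2 (adjusted p 0.0530 to 0.0707). Itgb5 was lost without those libraries, TGFB2 replicate 2 or BMP4 replicate 1, and in the fit on only the groups compared (0.0552 to 0.0926). Thus without TGFB2 replicate 3 or BMP4 replicate 2 only Itgb3 passed. Itgb8 (1.18 ± 0.37; adjusted p = 0.0777), Itgb6 (0.71 ± 0.23; 0.0965) and Itgb1 (-0.58 ± 0.24; 0.176) passed only in some alternatives. With the replicate number as a block their adjusted p were 0.00981, 0.0410 and 0.0095, and 6 members passed.

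The interaction of the ligands, the TGFB2 effect with BMP4 minus that without it on the log2 scale, passed for 0 of the 8 members in edgeR, and for 0.15% of all genes. Itgb3, Itgb6 and Itgb5 had an unadjusted p under 0.05. For Itgb3 the value was -2.61 ± 0.75 (adjusted p = 0.272), since TGFB2 raised it by 6.07 from the NT level and by 3.47 from the BMP4 level. DESeq2 (adjusted p = 0.02) and the fit with the replicate block (0.0132) called it, and limma voom and limma on TPM called 0 members. Itgb6 was at -1.02 ± 0.33 (adjusted p = 0.368) and Itgb5 at -0.91 ± 0.31 (adjusted p = 0.392).

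The Itgb3 response was then set against Itgb6 and Itgb8 within each library, as the difference of their log2 CPM with a prior count of 2, which removes depth. The difference does not account for transcript length, so only its shifts between groups are read. For Itgb6 the ratio of counts to TPM varied 1.49-fold between libraries. Shifts against Itgb6 can therefore hold a part from assigned length, which was not tested. Itgb3 minus Itgb6 was -6.0, -3.76 and -4.49 in NT libraries, 0.55, 0.14 and 1.11 with TGFB2, -3.42, -3.93 and -3.06 with BMP4, and -0.34, -0.07 and 1.18 with both. Libraries given TGFB2 were all above those without it. The TGFB2 effect averaged over both BMP4 levels was 4.54 (exact two-sided permutation p = 0.005, the smallest that the 400 arrangements allow; adjusted p = 0.01 over the 4 tests), at 5.35 without BMP4 and 3.73 with it.

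Itgb3 minus Itgb8 was -7.64, -4.95 and -4.94 in NT libraries and 1.48, 1.16 and 2.66 with TGFB2. It was -3.78, -3.25 and -1.07 with BMP4, and 1.61, 2.02 and 3.44 with both. Here too the libraries with and without TGFB2 did not overlap. The TGFB2 effect was 6.33 (exact permutation p = 0.005, adjusted p = 0.01), made up of a rise of Itgb3 and a fall of Itgb8. The changes of the single genes were reported above from the same libraries, so the tests on differences are not separate evidence. With every replicate 1 library left out, the effects were 4.4 and 5.87, and the design then allowed no adjusted p under 0.111.

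BMP4 shifted Itgb3 minus Itgb8 by 1.87 (exact permutation p = 0.025; adjusted p = 0.0333), by 3.14 without TGFB2 and by 0.59 with it. Between libraries of the same replicate number the shift was positive in 6 of 6 pairs, from 0.13 to 3.87. An exact test that flips signs within these pairs gave an adjusted p of 0.0417. Its p is the smallest that 6 pairs allow and follows from 6 of 6 positive shifts, so it adds nothing to that count. Without pairing, that effect lost its call without any single NT library, TGFB2 replicate 1 or 2, BMP4 replicate 2 or 3, or BMP4-TGFB2 replicate 3 (adjusted p 0.0533 to 0.0933), and without all replicate 1 libraries (0.148). The BMP4 shift of Itgb3 minus Itgb6 was 0.47 (exact permutation p = 0.4; adjusted p = 0.4), at 1.28 without TGFB2 and -0.34 with it: BMP4 alone raised both genes.

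**Figure D3:**
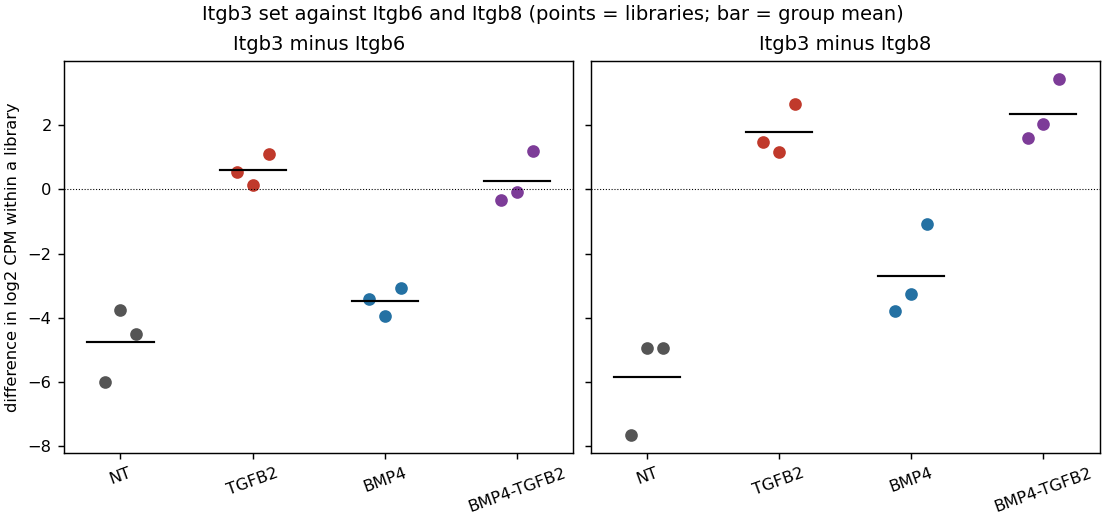
Difference in log2 CPM within each library between Itgb3 and Itgb6 (left) and between Itgb3 and Itgb8 (right). Points are libraries and bars are group means. Group means of Itgb3 minus Itgb6 move from -4.75 in NT to 0.60 with TGFB2, and those of Itgb3 minus Itgb8 from -5.84 to 1.77.

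Alpha chains decide which receptors the beta chains can form. Itgav, the partner of Itgb3, Itgb5, Itgb6 and Itgb8, had 182, 149 and 180 CPM in NT libraries, 273, 305 and 333 with TGFB2, 251, 285 and 294 with BMP4, and 290, 396 and 360 with both. All treated libraries were above the NT libraries. Its log2 fold change was 0.84 ± 0.14 with TGFB2 (edgeR adjusted p = 0.00167) and 0.70 ± 0.14 with BMP4 (0.016). The BMP4 call was lost without NT replicate 2, BMP4 replicate 2 or BMP4 replicate 3 and on the TPM scale (adjusted p 0.054 to 0.125). Per length Itgav was at 51.0 ± 9.17 TPM in NT and 90.5 ± 17.3 TPM with TGFB2. Itgb5 at 96.5 and 374 TPM exceeded it in mean in both groups.

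Itga2b, the platelet partner of Itgb3, rose by 3.25 ± 0.41 with TGFB2 and 2.08 ± 0.40 with BMP4 (edgeR adjusted p = 0.000258 and 0.0129), the latter lost without NT replicate 2, without all replicate 1 libraries and in 2 other settings (0.0520 to 0.0912). It remained scarce, at 0.110 ± 0.0596 TPM in NT and 1.34 ± 0.73 TPM with TGFB2. The other 6 markers of megakaryocytes and platelets, none of which passed the filter on counts, summed to 1.30 to 1.47 CPM in NT libraries, 0.260 to 0.610 CPM with TGFB2, 0.360 to 2.79 CPM with BMP4 and 0.469 to 0.589 CPM with both; their part in the BMP4 result was not tested.

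Itga6, the only partner of Itgb4, fell with TGFB2 by 1.5 on the log2 scale, from 188 ± 37.0 TPM to 66.5 ± 13.2 TPM (SE 0.29; edgeR adjusted p = 0.00328), while Itgb4 itself rose. With BMP4 it was at 0.09 ± 0.28 (adjusted p = 0.925). Among 18 alpha subunit genes, 15 were tested; 6 rose and 3 fell with TGFB2, and 2 rose (Itgav, Itga2b) and 2 fell with BMP4. Over all genes tested 11.3% rose and 11.1% fell with TGFB2, and 3.19% rose and 2.23% fell with BMP4, and the lists that follow are read against the same shares. The alpha chains' median log2 fold change with TGFB2 was 0.72, beside 0.01 over all genes tested. Itga2, a collagen-binding partner of Itgb1, rose by 2.26 ± 0.37 with TGFB2, and Itga8, another partner of Itgb1, fell by 2.72 on the log2 scale. With BMP4, Itga8 was called at -1.08 ± 0.27 (adjusted p = 0.0399), a call lost without any single NT or BMP4 library, TGFB2 replicate 2, BMP4-TGFB2 replicate 2 or all replicate 1 libraries and on the TPM scale (0.0532 to 0.146). Itga5, the fibronectin-binding partner, rose with TGFB2 (2.06 ± 0.54; adjusted p = 0.0202), and Itga9 fell with each ligand (-2.54 ± 0.60 and -2.56 ± 0.61; adjusted p = 0.0114 and 0.0327). With TGFB2, Itga5 had 54.1, 39.4 and 147 CPM, with replicate 3 well above the others. Itga9 had 9, 7 and 40 counts with TGFB2 and 13, 17 and 21 with BMP4. Itga5 and Itga9 were chosen after their values were seen, and their calls were not followed through the alternatives. The alpha partners of the leukocyte chains were low: Itgal, a partner of Itgb2, stood at 0.194 ± 0.0458 TPM in NT, and Itga4 and Itgae, partners of Itgb7, at 0.0264 ± 0.0125 and 0.152 ± 0.0161 TPM. Itgal passed with TGFB2 (1.51 ± 0.49; adjusted p = 0.0454) but not without any single NT or TGFB2 library, BMP4 replicate 2, BMP4-TGFB2 replicate 1 or 2, or all replicate 1 libraries, nor in 4 other settings (0.0515 to 0.140).

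**Figure D4:**
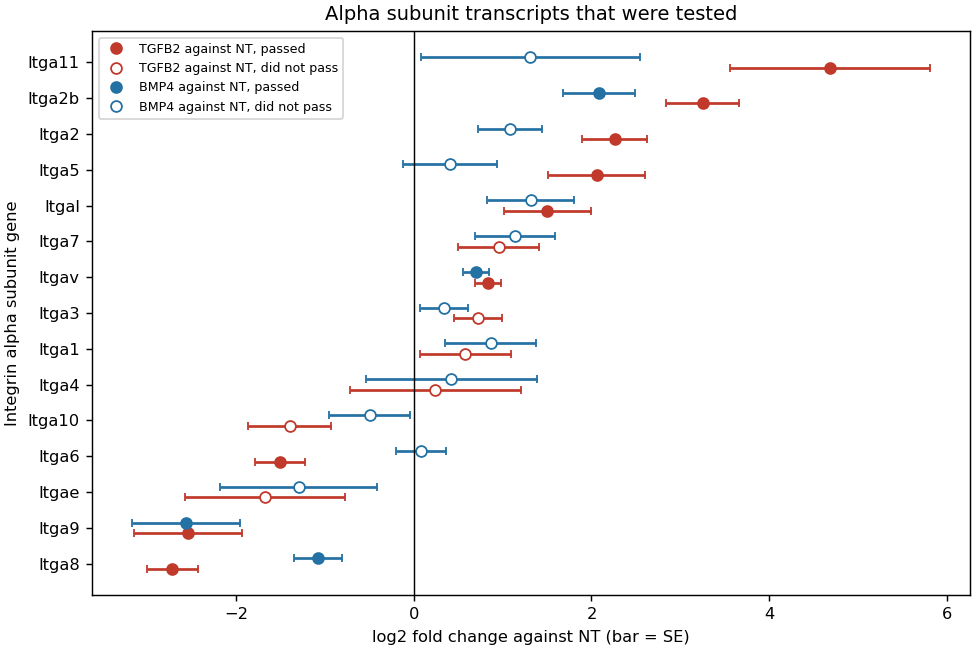
Log2 fold change against NT, with SE bars, of the 15 integrin alpha subunit genes that were tested, for TGFB2 and for BMP4. Filled points passed at an adjusted p under 0.05. Itgav, the partner of Itgb3, Itgb5, Itgb6 and Itgb8, lies at 0.84 and 0.70, and Itga6, the partner of Itgb4, at -1.5 and 0.09.

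Genes of the structures that the beta chains enter were counted from lists. Of 8 hemidesmosome genes beside Itgb4, 4 rose with TGFB2 and Itga6 fell, and 0 passed with BMP4 in edgeR, where 11.3% of all genes rose and 11.1% fell with TGFB2 and 5.42% passed in either direction with BMP4. The laminin chain Lama3 (3.40 ± 0.49), the tetraspanin Cd151 (0.74 ± 0.14) and the linker Plec (0.89 ± 0.26; adjusted p = 0.0287) were among the 4; Plec was lost without NT replicate 1, NT replicate 2 or TGFB2 replicate 3 (0.0664 to 0.115). The list's median was 0.82. With BMP4, Lama3 and Plec passed in DESeq2 and with the replicate block, and Cd151 with the block (adjusted p = 0.0484).

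Of 24 genes for partners of the beta tails and focal adhesion proteins, 23 were tested; 6 rose and 1, Tln2, fell with TGFB2, and 2 rose and 1 fell with BMP4 (all genes: 11.3% and 11.1% with TGFB2, 3.19% and 2.23% with BMP4). The kindlin Fermt1, which activates integrins by binding the beta tail, rose by 2.54 ± 0.23 with TGFB2 and stood at -0.02 ± 0.22 with BMP4. The focal adhesion protein Zyx rose by 1.10 ± 0.13 with TGFB2, but shares exons with Epha1, whose mean count was 33.0% of its own. The kinase Ptk2b and the adaptor Bcar1 rose with TGFB2 (2.34 ± 0.30 and 0.85 ± 0.13) and with BMP4 (1.39 ± 0.30 and 0.56 ± 0.13; adjusted p = 0.0205 and 0.0333). Dab2, an adaptor that sorts integrins for endocytosis, fell with BMP4 (-1.24 ± 0.25; adjusted p = 0.016). The list's median was 0.20 with TGFB2. These 3 BMP4 calls were each lost in several settings: Dab2 without NT replicate 2, BMP4 replicate 2 or all replicate 1 libraries (0.0549 to 0.0739), Ptk2b without NT replicate 3 or BMP4 replicate 1 or 3 (up to 0.0884), and Bcar1 without any NT library, TGFB2 replicate 1, or BMP4 replicate 2 or 3 (up to 0.141).

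Among 16 ligands of the alpha v integrins found in the table, 15 were tested; 6 rose and 0 fell with TGFB2, and Fn1 and Ccn1 rose with BMP4 (all genes: 11.3% rose with TGFB2 and 3.19% with BMP4). The list's median with TGFB2 was 1.32. Fibronectin, Fn1, went from 71.1 ± 35.7 TPM in NT to 777 ± 298 TPM with TGFB2 (3.40 ± 0.49; edgeR adjusted p = 0.000674) and 337 ± 99.5 TPM with BMP4 (2.27 ± 0.47; 0.0181, and 0.0642 to 0.0841 without NT replicate 2, without BMP4 replicate 3 or with no filter). Ccn1, a matricellular ligand, rose by 2.37 ± 0.42 and 2.24 ± 0.42 (adjusted p = 0.00229 and 0.0116; with BMP4 0.0545 to 0.0824 without NT replicate 2, without all replicate 1 libraries or with no filter). Osteopontin, Spp1, was by far the most abundant of those named, at 1779.8 ± 165 TPM in NT, and did not pass with either ligand alone (-0.37 ± 0.24 and -0.42 ± 0.24), but fell with both, by 1.72 on the log2 scale (adjusted p = 0.000487). Vitronectin, Vtn, was at 0.125 ± 0.00877 TPM in NT.

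Genes of latent TGFb, which the Itgb6 and Itgb8 integrins act on, were mostly not called. Of those tested, 10 did not pass with TGFB2 and 11 did not pass with BMP4. Of 15 listed, 14 were tested, with 3 risen and 1 fallen with TGFB2, 2 risen and 1 fallen with BMP4, and a median of 0.25 with TGFB2. Of all genes 11.3% rose and 11.1% fell with TGFB2, and 3.19% and 2.23% with BMP4. Tgfb1, Tgfb3 and Thbs1 stand in the ligand list too. Tgfb1, whose latent form both integrins bind, was at 62.5 ± 22.5 TPM in NT, 70.5 ± 6.28 TPM with TGFB2 and 49.6 ± 13.5 TPM with BMP4, and did not pass (0.18 ± 0.24 and -0.28 ± 0.24). Tgfb3, also bound by them, was at -0.62 ± 0.23 with TGFB2 (edgeR adjusted p = 0.0768; it passed in DESeq2, with the replicate block and without NT replicate 1). Endogenous Tgfb2 fell with TGFB2 (-1.79 ± 0.33; adjusted p = 0.00285). The carrier Ltbp1 did not pass (-1.28 ± 0.50; adjusted p = 0.0954), although DESeq2 and the fit without TGFB2 replicate 3 called it, and Ltbp2, a relative that does not carry latent TGFb, rose by 1.67 ± 0.24 and 1.63 ± 0.24 with TGFB2 and BMP4. Furin, the protease that cleaves the TGFb precursor and integrin alpha chains, rose by 1.19 ± 0.12 with TGFB2. With BMP4 it was called at 0.45 ± 0.12 (adjusted p = 0.0466), a call lost without any single NT, BMP4 or BMP4-TGFB2 library or TGFB2 replicate 1 and in further settings (0.0516 to 0.188). The gelatinase Mmp9 rose by 7.35 ± 1.69 with TGFB2, with a wide spread (102 ± 129 TPM), and did not pass in limma voom or with no filter (0.0545 to 0.0653).

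Markers of other cell types that express these chains were low beside the epithelial markers. The 13 leukocyte markers, 5 of them tested, summed to 2.43 to 3.81 CPM in NT libraries, 4.61 to 9.12 with TGFB2, 2.34 to 6.52 with BMP4 and 5.11 to 9.88 with both. Without Csf1r, which shares exons with the far more abundant Hmgxb3, they summed to 2.24 to 3.21, 2.39 to 4.68, 1.34 to 3.45 and 1.60 to 4.09 CPM. The 6 osteoclast markers summed to 4.05 to 7.23 CPM in NT libraries, 4.23 to 6.89 with TGFB2, 2.75 to 4.61 with BMP4 and 3.75 to 5.23 with both, nearly all of it Acp5, which did not pass with TGFB2 (0.00 ± 0.31). Without Acp5 they did not sum to more than 0.443 CPM in any library, and their part in the Itgb3 result was not tested. The 8 endothelial markers, 6 of them tested, summed to 3.47 to 6.0 CPM in NT and 3.41 to 6.40 CPM with TGFB2. The 9 fibroblast markers, 7 of them tested, summed to 5.22 to 13.6 CPM in NT, 19.8 to 32.1 with TGFB2, 7.5 to 21.5 with BMP4 and 14.9 to 29.7 with both, moving with Itgb3, Itgb5 and Itgb1; their part in those results was not tested. Of the fibroblast markers tested, 4 of 7 rose with TGFB2 (Col1a1, Pdgfrb, Col3a1 and Pdgfra). Of the leukocyte markers tested, 2 of 5 rose (Csf1r and Laptm5), and 0 of either list fell. Among all genes tested 11.3% rose with TGFB2. What these markers contribute to the integrin results was not tested. No marker of these lists was at 0 in every library. In bulk RNA, more cells of a kind and more transcript per cell cannot be told apart.

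Likeness of pattern over the 12 libraries was measured by the root mean square difference of centred log2 CPM among 13240 genes searched. Acsbg1 (0.54) and Ctla2a (0.61) were among the 3 genes most like Itgb3, where the median gene was at 2.66. Acsbg1, which encodes an acyl-CoA synthetase, had 1.75, 2.35 and 5.94 CPM in NT libraries, 131, 88.1 and 176 with TGFB2, 7.74, 11.8 and 34.7 with BMP4, and 121, 96.3 and 193 with both. As for Itgb3, the BMP4 libraries lay between those of NT and TGFB2, with replicate 3 the highest. Ctla2a shares exons with the predicted gene Gm49391.

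The genes most like Itgb6 were Parm1 (0.22), Snx18 (0.22) and the laminin-binding netrin Ntn4 (0.22), with the median gene at 0.69. Ntn4 had 18.4, 16.1 and 19.8 CPM in NT libraries, 27.8, 31.8 and 29.0 with TGFB2, 37.0, 55.0 and 42.9 with BMP4, and 27.5, 36.5 and 28.3 with both, so that, like Itgb6, its highest group mean was that of BMP4. The genes most like Itgb8 were Deptor (0.19), Cracr2b (0.24) and the BMP co-receptor Rgma (0.26), with the median gene at 0.99. Deptor, which encodes an inhibitor of the mTOR kinase, had 38.6, 23.7 and 20.8 CPM in NT libraries and 6.13, 9.59 and 6.99 with TGFB2. With BMP4 it had 24.5, 21.9 and 10.3 CPM, and with both 4.77, 7.88 and 4.16 CPM. In both genes NT replicate 1 was the highest library and BMP4 replicate 3 the lowest of its group.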

How the data were processed

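RNA enriched with oligo(dT) beads was sequenced without strand, per the labels' protocols and the file headers. The submitters' processing notes name Salmon 1.2.1, STAR 2.7.5b, bcl2fastq 2.17 and the GRCm38.p6 build, without settings. Deposited by the authors were estimated counts per gene (82.9% whole, rounded here) and TPM.

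Genes passing filterByExpr (minimum count 10; 15319 of 54347, with 99.9% of counts) entered the robust quasi-likelihood test of edgeR 4.0.16 (R 4.3.3), all 12 libraries in 1 model by group, with TMM factors of 0.971 to 1.03. The common biological coefficient of variation was 0.299. Adjusted p-values (Benjamini-Hochberg over all genes tested) come from edgeR where no tool is stated, and genes passed under 0.05. The ± of a log2 fold change is its SE, derived from the fold change and the F statistic, and that of a level its SD. The 95% intervals span 1.96 SE on each side, from the normal distribution, and are narrower than the F test would give. Alternatives were DESeq2 1.42.0, limma 3.58.1 (voom, and log2(TPM + 0.1)), other scalings and filters, the replicate block and leaving out libraries.

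Members and lists were chosen with earlier results of these data known. Named were all members and, from each list, the genes with the smallest p (up to 4 with TGFB2, 2 with BMP4 and 2 in BMP4-TGFB2 against TGFB2), a set of integrin partners and ligands, and the 3 genes most like Itgb3, Itgb6 and Itgb8. Libraries with the same replicate number deviated together from their groups (Pearson correlation across genes above 0.1) for all 3 pairs in BMP4 against NT (0.16 to 0.44), BMP4-TGFB2 against TGFB2 (0.23 to 0.50), BMP4-TGFB2 against BMP4 (0.15 to 0.35) and BMP4 against TGFB2 (0.15 to 0.35), so the fit with the replicate block is given there where it changes a call. This was not met in the other comparisons with NT. A few genes that the rule names are not reported here. All library pairs differed by more than sampling noise (lowest chi-square per degree of freedom 30.3). Precision for Itgb2, Itgb7 and untreated Itgb3 is limited by very low counts.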

Additional observations from a re-analysis of the deposited data

Results flagged for a closer look

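Among the genes named, the TGFB2 effect with BMP4 differed from that without it for Pmepa1, a feedback inhibitor of TGFb signalling listed as a response check, by -1.47 on the log2 scale (interaction term, edgeR adjusted p = 0.0259). TGFB2 raised Pmepa1 by 2.24 ± 0.14 from the NT level, and BMP4 alone raised it by 1.46 ± 0.14. The interaction lost its call without NT replicate 2, TGFB2 replicate 2 or 3, BMP4 replicate 1 or 2 or any single BMP4-TGFB2 library and on the TPM scale (adjusted p 0.0526 to 0.0931). None of the 8 integrin beta subunit genes had an interaction that passed in edgeR (3 had an unadjusted p under 0.05), and DESeq2 called 1, Itgb3.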

How the results depend on the processing

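The 8 integrin beta subunit genes gave 56 results over the 7 comparisons, of which 36 kept their side of the threshold under every alternative. Over 1168 values under alternatives, 0 reversed a called direction, 49 lost and 16 gained a call. Members called with TGFB2 against NT numbered 3 to 6 with single libraries left out, with BMP4 against NT 1 to 3 (and 1 on the TPM scale), in BMP4-TGFB2 against BMP4 2 to 5, and in BMP4 against TGFB2 1 to 4 (and 5 in DESeq2). The interaction called 1 member in DESeq2. With the replicate block, 6 members passed in BMP4 against TGFB2 and 1 in the interaction; the block also called Itgb1 and Itgb2 in BMP4-TGFB2 against BMP4 and Itgb2 in TGFB2 against NT (adjusted p = 0.0338), where the numbers did not meet the rule for pairs, and changed no other call of a member. The TGFB2 effects on Itgb3 minus Itgb6 and minus Itgb8 ranged from 4.23 to 4.79 and 5.88 to 6.74 without single libraries, and were 4.4 and 5.87 without all replicate 1 libraries, a design too small to pass. The BMP4 effect on Itgb3 minus Itgb8 ranged from 1.42 to 2.14 without single libraries and was 1.8 without all replicate 1 libraries. The causes were not tested. The interaction was not run on only the groups compared, since it uses all 4. DESeq2 gave no adjusted p for 6 values. Depth limits Itgb2 and Itgb7, and untreated Itgb3. The fit without robust estimation was chosen after seeing the data.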
